A study of Mus musculus with 6 samples.

Results

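The genes described here are the 82 expressed genes whose scaled counts (CPM) were lower in every Zeb2 cKO heart than in every WT heart 14 days after myocardial infarction (MI). Genes whose symbols start with mt-, which are encoded by the mitochondrial genome, were dropped, and each library was scaled to a sum of 1000000 over the remaining counts, a value called CPM here. Genes with at least 10 CPM in all 6 libraries were kept, and a gene was taken when its highest Zeb2 cKO value lay below its lowest WT value. This left 8567 expressed genes out of 38293 in the table, of which the 82 genes made up 0.957%, and a cap of 300 genes was not reached. The genes were thus chosen by their CPM values in the 6 libraries, that is by the difference between the genotypes, so their lower values in Zeb2 cKO hearts are given as a description and without a test.

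The study compared 3 WT and 3 Zeb2 cKO heart samples from adult mice of a backcrossed C57BL/6J strain, and all mice had a permanent occlusion of the left anterior descending (LAD) coronary artery. The methods describe the controls as Zeb2 fl/fl, that is with floxed Zeb2 alleles and no Cre, and the Zeb2 cKO as Zeb2 fl/fl mice with Cre under the murine Myh6 (αMHC) promoter, so that only cardiomyocytes lose Zeb2. The labels place the tissue in the border region of the infarct, whereas the methods place it in the remote zone. RNA without ribosomal RNA was sequenced from the whole tissue piece, so the counts come from all its cells, and fewer cells of a type cannot be told apart from less RNA per cell.

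ZEB2 is a zinc finger transcription factor that binds E-box motifs and is best known as a repressor in epithelial to mesenchymal transition. In an injured heart, cardiomyocytes return in part to a fetal pattern of expression in which natriuretic peptides rise, early response factors such as the AP-1 proteins are induced by stretch and stress, and fibroblasts and macrophages fill the damaged area. A whole tissue library mixes these programs.

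Total counts ranged from 37288174 to 51136331 per library, of which 33.0% to 39.5% lay outside the mt- genes. Zeb2 itself was at 161, 346 and 193 CPM in WT and at 161, 201 and 188 CPM in Zeb2 cKO, so the groups overlapped (two-sided p = 0.60 in an exact permutation test, which cannot go below 0.1 with 3 against 3). WT 2 stood apart: the summed level of 12 fibroblast markers, none of them at 0, was 29861 CPM there against 4761 and 6075 CPM in WT 1 and WT 3 and 4930 to 6979 CPM in Zeb2 cKO. Its 12 macrophage markers summed to 1729.8 CPM against 458 to 630 CPM in the other WT and 554 to 620 CPM in the Zeb2 cKO libraries, and its 14 cardiomyocyte markers to 112672 CPM against 164729 to 192111 CPM in all other libraries. Log2 ratios of the genes that shrank by over 1.5 times without WT 2 are therefore also given without it. Over 14746 genes tested, the quasi-likelihood test of edgeR called 0 genes (0%) at a Benjamini-Hochberg adjusted p under 0.05. At an unadjusted p under 0.05 it called 280 genes (1.9%), a smaller share than this cutoff allows when no gene differs. DESeq2 called 2 genes after adjustment, both higher in Zeb2 cKO and neither among the 82.

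The 82 genes were modestly lower in Zeb2 cKO hearts, and most were separated from WT by a narrow margin. The log2 ratio of the mean CPM (Zeb2 cKO over WT) had a median of -0.28 and ran from -1.46 to -0.039, which corresponds to a mean that was 2.69% to 63.6% lower. Over all expressed genes the median log2 ratio was 0.0071. Only 5 of the 82 genes had a log2 ratio under -1, and 53 had one under -0.2. The margin between the lowest WT and the highest Zeb2 cKO library had a median of 2.02% of the WT value. It was over 10% in 12 genes, under 1% in 22, and smaller than 1 counting SD of the 2 libraries concerned in 62. The 82 genes are thus not all cleanly separated, and 9 had a margin of more than 2 counting SDs.

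**Figure D1:**
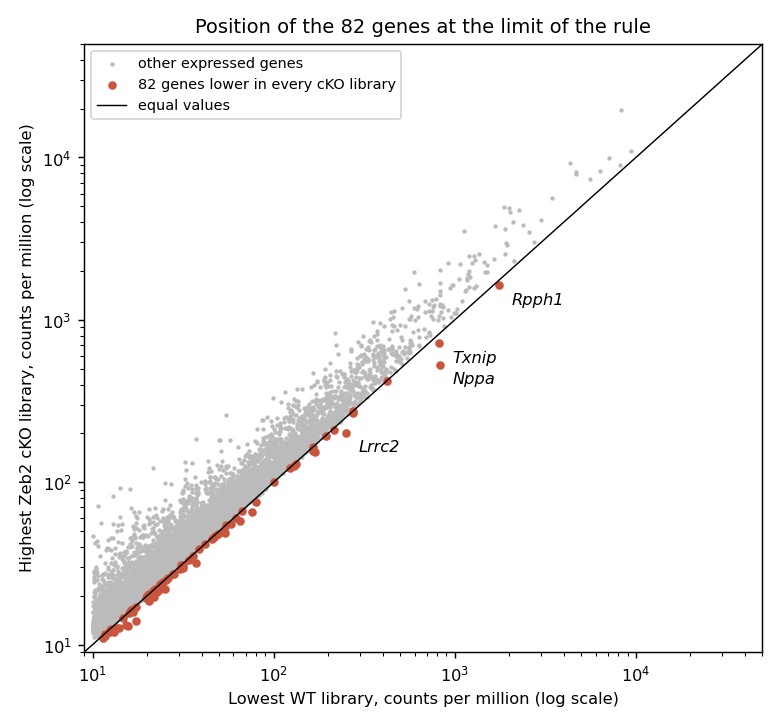
Highest Zeb2 cKO library against lowest WT library in CPM for 8567 expressed genes, on log scales, with the 82 genes in red and equal values on the line. Nppa, Lrrc2 and Txnip stand well below the line, whereas most of the red points touch it.

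The number of genes that met the rule depended on how libraries were scaled. Scaled to the counts outside the mt- genes, 82 genes were lower and 410 (4.79%) were higher in every Zeb2 cKO library, a lower share of 16.7% of both. With TMM-scaled library sizes, 146 genes (1.71%) were lower and 297 (3.47%) higher, with DESeq2 size factors 193 (2.26%) were lower and 236 (2.76%) higher, and scaled to all counts 9 (0.182%) were lower and 522 (10.5%) higher. The lower share was 33.0%, 45.0% and 1.69% of both in these scalings. Of the 82 genes, the order of the groups held in 59 genes with TMM, in 61 with size factors and in 16 with all counts. In every one of the 4 scalings 14 genes were lower: Nppa, ENSMUSG00000029333, Lrrc2, Kif26b, Hist1h1e, Tmem260, Extl3, Rny3, Junb, H2-T23, Nexn, Tmem164, Insyn1 and Rpph1. Among those that kept their order in the scaling of the rule alone were Gm22486, Ubfd1, Ackr3, Slc39a3, Dlgap4, Ulk2, Rufy3, Tnks2, Glg1, Zfp330, Esf1, Agfg2, Exosc10, Tfb2m, Foxo3, Zfand2a, Mef2a and Rab10.

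**Figure D2:**
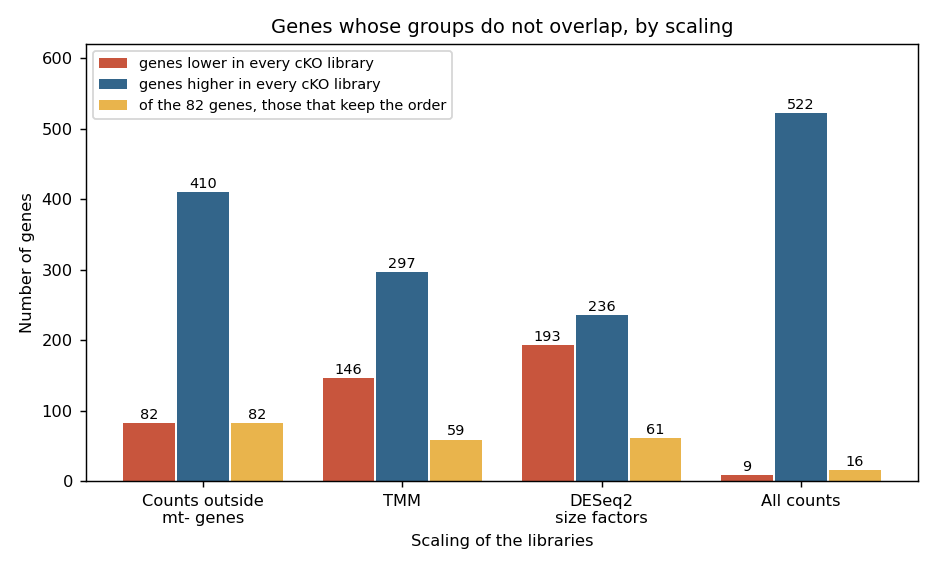
Number of genes with groups that do not overlap, lower (red) or higher (blue) in Zeb2 cKO, under 4 scalings of the libraries, and the number of the 82 genes that keep their order (yellow). The lower genes go from 9 to 193 and the higher genes from 236 to 522 depending on the scaling, and 16 to 61 of the 82 genes keep their order in the other scalings.

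Among the genes of heart muscle, Nppa, which encodes the atrial natriuretic peptide that ventricular muscle makes under load, had the widest margin. Its levels were 886, 2138 and 831 CPM in WT and 509, 365 and 531 CPM in Zeb2 cKO. All Zeb2 cKO hearts lay far below WT 1 and WT 3, and WT 2 lay far above both. The mean was 63.6% lower, with a log2 ratio of -1.46 over all libraries and -0.87 without WT 2. Nppb, which encodes the brain natriuretic peptide and is often co-regulated with Nppa, overlapped between the groups, at 308, 948 and 603 CPM in WT and 354, 374 and 475 CPM in Zeb2 cKO. The atrial muscle genes Myl7, Myl4 and Sln, at low counts, did not share this order, and Myl7 was highest in Zeb2 cKO 2 at 20.1 CPM against 0.34 to 3.47 CPM in the other libraries. Of 22 expressed genes of the fetal program and cardiac stress, Nppa was the 1 that met the rule (4.55%, against 0.957% of expressed genes). Nppa lies on the plus strand of chromosome 4 (chr4:148000722-148002079, GRCm38), and an annotated gene on the opposite strand, Gm13054, overlaps its exons.

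Lrrc2, a leucine-rich repeat protein, was at 251, 299 and 327 CPM in WT and at 138, 203 and 201 CPM in Zeb2 cKO. WT 2 was not the extreme here, and the log2 ratio of -0.70 stayed at -0.68 without it. Txnip, the thioredoxin-interacting protein that restrains glucose uptake, was at 852, 1043 and 822 CPM in WT and 404, 588 and 724 CPM in Zeb2 cKO, so that Zeb2 cKO 1 had the lowest level and Zeb2 cKO 3 the level nearest to WT, 11.9% below WT 3. Its log2 ratio was -0.66 over all libraries and -0.55 without WT 2, and it lost its order when all counts were used for scaling. Arrdc4, the nearest arrestin relative of Txnip, overlapped between groups in all 4 scalings, at 24.4, 34.6 and 20.3 CPM in WT and 21.1, 25.2 and 27.3 CPM in Zeb2 cKO. Per kilobase of exon, Nppa was at a mean of 1485 CPM in WT and 541 CPM in Zeb2 cKO, Txnip at 290.0 and 183 CPM, and Lrrc2 at 77.8 and 48.0 CPM.

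**Figure D3:**
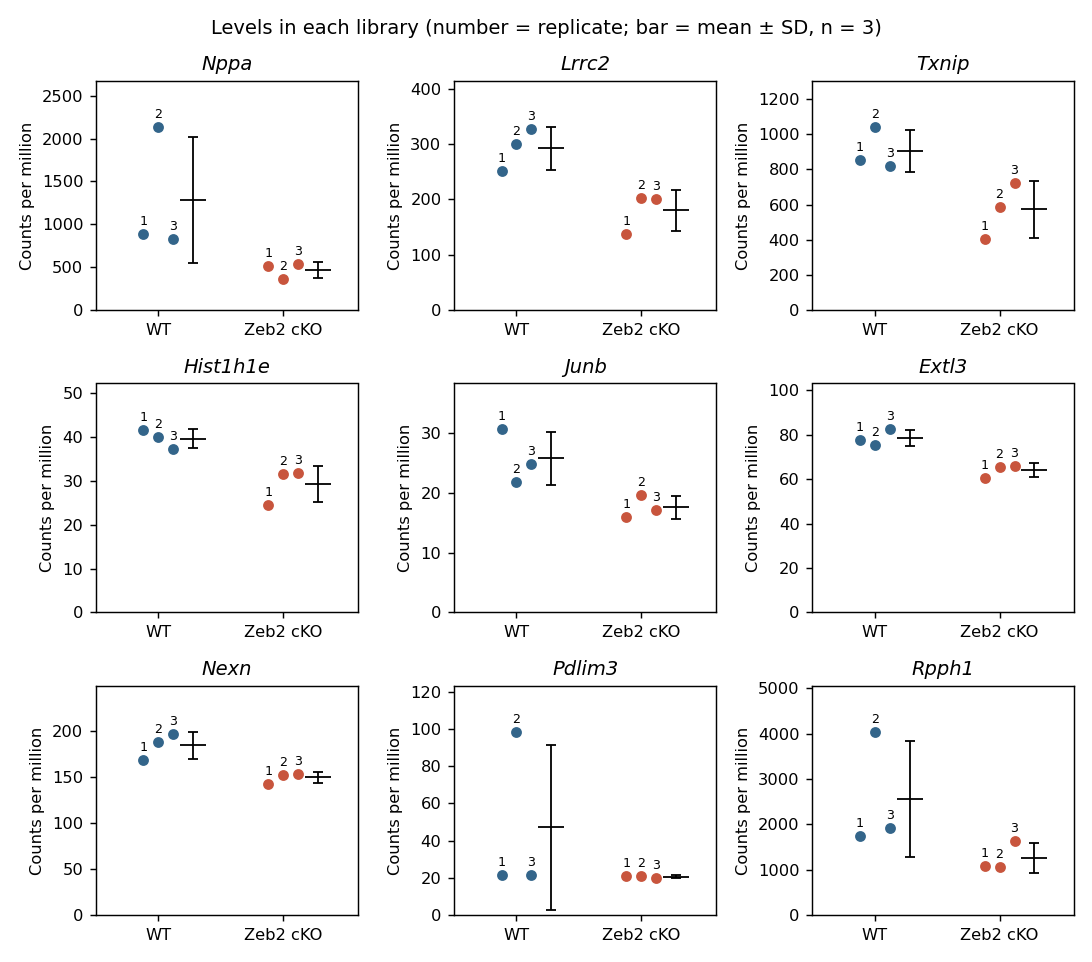
CPM in each library for 9 of the 82 genes, with the replicate number beside each point and bars for the mean ± SD (n = 3). In Hist1h1e, Extl3 and Nexn the WT libraries lie close together, whereas the WT means of Nppa, Pdlim3 and Rpph1 are pulled up by WT 2. The WT values of Lrrc2 run from 251 to 327 CPM.

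Of 5 genes of the Z-disc, of actin and of adhesion, Nexn and Twf2 did not depend on WT 2, whereas Pdlim3, Capg and Nedd9 were high in WT 2. Nexn, the F-actin binding protein nexilin of the Z-disc, was at 169, 189 and 197 CPM in WT and 143, 153 and 154 CPM in Zeb2 cKO, a difference of -0.30 on the log2 scale that was -0.29 without WT 2. Twf2, a twinfilin that binds actin monomers, was 19.3% lower in the mean but overlapped between groups with TMM and with size factors. Pdlim3, a LIM protein that binds α-actinin, was at 21.5, 98.6 and 21.6 CPM in WT and 21.1, 20.9 and 19.7 CPM in Zeb2 cKO. WT 1 and WT 3 exceeded all Zeb2 cKO libraries by little, and its log2 ratio of -1.20 was -0.069 without WT 2, a shrinkage by 17.4 times. Capg, which caps the barbed ends of actin filaments, was at 19.96, 52.2 and 21.3 CPM in WT and 19.8, 18.0 and 19.3 CPM in Zeb2 cKO, and its log2 ratio went from -0.71 to -0.12 without WT 2. Nedd9, a docking protein of focal adhesions, was at 100.8, 258 and 103 CPM in WT and 86.6, 90.7 and 100.7 CPM in Zeb2 cKO, and its log2 ratio went from -0.73 to -0.14. Pdlim3, Capg and Nedd9 were high in the library with the most fibroblast and macrophage marker counts, and the part of these cells in their values was not tested. Of the other PDZ-LIM genes, Pdlim1, Pdlim2, Pdlim4, Pdlim5 and Ldb3 overlapped between the groups in all 4 scalings, and Pdlim7 was lower with TMM and size factors only. Of 47 expressed genes of a list of sarcomere and Z-disc genes, Pdlim3 was the 1 that met the rule (2.13%, against 0.957% of expressed genes). Nexn is not in that list. The list's median log2 ratio was 0.18, or -0.034 without WT 2.

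Of 10 transcription factors, Junb, a subunit of the AP-1 complex and an early response gene, had the widest margin. Junb was at 30.6, 21.8 and 24.8 CPM in WT and at 15.9, 19.6 and 17.1 CPM in Zeb2 cKO. Here WT 2 was the lowest WT library, so that the log2 ratio of -0.55 was larger in size without it, at -0.66. Jund, another AP-1 subunit, was at 31.0, 25.6 and 21.5 CPM in WT and 20.96, 18.1 and 21.5 CPM in Zeb2 cKO, a margin of 0.176%. The partners of these proteins did not share the order: Jun, Fos, Fosb and Fosl2 overlapped between groups in all 4 scalings, and Fos ranged from 16.0 to 30.1 CPM in WT and from 12.99 to 40.1 CPM in Zeb2 cKO. Of 27 expressed early response genes, Junb and Jund were the 2 that met the rule (7.41%, against 0.957% of expressed genes). None of the 27 was higher in every Zeb2 cKO library, and their median log2 ratio was -0.16, or -0.20 without WT 2. The share rests on 2 genes, and Jund lost its order with all counts. The list was chosen with earlier results of these data known, so enrichment was not tested.

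Factors that pattern the heart showed small differences. Gata6, a GATA factor of cardiac development, was at 54.8, 64.6 and 58.9 CPM in WT and at 51.9, 54.6 and 52.2 CPM in Zeb2 cKO, a margin of 0.323%, and its log2 ratio went from -0.17 to -0.10 without WT 2. Mef2a, a muscle factor, was at 274, 277 and 289 CPM in WT and 259.8, 274 and 261 CPM in Zeb2 cKO. Foxo3, which drives autophagy and atrophy genes, was at 143, 128 and 123 CPM in WT and 112, 119 and 122 CPM in Zeb2 cKO. The relatives Gata4, Mef2c, Mef2d, Foxo1 and Foxo4 overlapped between the groups in all 4 scalings, and Mef2a and Foxo3 overlapped in the other 3. Gata6, Mef2a and Foxo3 were the members among 36 expressed cardiac transcription factors (8.33%, against 0.957%), whose median log2 ratio was 0.058, or -0.023 without WT 2. Enrichment was not tested for this list either.

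The remaining factors were Zbtb21, Zfp146, Tshz3, Mn1 and Irf2bpl, of which Tshz3, a teashirt zinc finger factor, and Mn1, a transcriptional coactivator, were 30.1% and 39.0% lower in the mean. The log2 ratio of Tshz3 went from -0.52 to -0.24 without WT 2. Mn1 was at 25.1, 57.2 and 24.5 CPM in WT against 18.5, 22.4 and 24.2 CPM in Zeb2 cKO, so this difference rested mostly on WT 2 and was -0.19 on the log2 scale without it, from -0.71. Irf2bpl was at 29.0, 33.7 and 26.1 CPM in WT and 20.1, 21.6 and 25.7 CPM in Zeb2 cKO. Among 216 expressed zinc finger proteins 3 met the rule (1.39%, near the background of 0.957% of expressed genes).

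The machinery of transcription and chromatin contributed 7 genes that were 11.4% to 26.1% lower in the mean. In a list of 136 expressed chromatin and histone enzymes, 0 met the rule and 8 were higher in every Zeb2 cKO library. Hist1h1e, which encodes the linker histone H1.4, was at 41.7, 40.0 and 37.4 CPM in WT and at 24.6, 31.6 and 31.8 CPM in Zeb2 cKO. Its WT libraries lay close together, its log2 ratio was -0.44 with WT 2 and -0.43 without, and it kept its order in all 4 scalings. The other linker histones measured, H1f0, H1fx, Hist1h1a, Hist1h1b, Hist1h1c and Hist1h1d, overlapped between groups in all 4 scalings, and exons of Gm11398 and Hist1h2be overlap Hist1h1e on its own strand. The other members of this group were Med17, a subunit of Mediator, Ell2, an elongation factor of RNA polymerase II, Pnrc1, a nuclear receptor coactivator, Mta3, a subunit of the NuRD complex, Ssbp4, a single-stranded DNA binding cofactor, and Rps6ka4, a kinase that phosphorylates histone H3. Pnrc1 was at 79.6, 97.7 and 84.7 CPM in WT and at 62.7, 61.2 and 75.7 CPM in Zeb2 cKO. Rps6ka4 had the smallest margin of all, 0.0275%, at 20.348 CPM in WT 3 against 20.342 CPM in Zeb2 cKO 3, and its log2 ratio went from -0.20 to -0.093 without WT 2.

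Both receptors of the chemokine CXCL12 met the rule, whereas the ligand did not follow them. Cxcr4, the signalling receptor, was at 20.7, 28.01 and 20.1 CPM in WT and at 17.0, 19.8 and 17.4 CPM in Zeb2 cKO, and its log2 ratio went from -0.34 to -0.18 without WT 2. Ackr3, the atypical receptor that takes up CXCL12, was at 49.0, 45.885 and 45.870 CPM in WT and at 44.5, 44.4 and 37.2 CPM in Zeb2 cKO. Cxcr4 overlapped between groups with all counts, and Ackr3 overlapped in each scaling but the rule's own. Cxcl12 was at 163, 109 and 133 CPM in WT and at 215, 186 and 152 CPM in Zeb2 cKO, a log2 ratio of 0.45 with overlap in all 4 scalings. In this group H2-T23, a nonclassical MHC class I molecule, was at 20.5, 44.8 and 21.8 CPM in WT and at 17.9, 14.6 and 18.6 CPM in Zeb2 cKO. Its log2 ratio was -0.77, or -0.31 without WT 2, and 33.2% of its longest transcript is shared with other genes at 95% identity or more. Parp12, an interferon-induced ADP-ribosyltransferase, was 16.0% lower with a margin of 0.325%, and its log2 ratio went from -0.25 to -0.14 without WT 2. H2-T23 and Parp12 are not in the list of interferon response and MHC genes, of which 0 of 29 expressed met the rule. The median log2 ratio of that list was -0.23, or 0.018 without WT 2. Of 37 expressed chemokine, cytokine and complement genes Cxcr4 alone met the rule (2.70%, against 0.957% of expressed genes).

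Of 6 genes of glycan synthesis, glycan breakdown and the Golgi, Extl3, a glycosyltransferase of heparan sulfate chains, was at 77.6, 75.5 and 82.5 CPM in WT and at 60.5, 65.7 and 65.9 CPM in Zeb2 cKO. Its libraries were close within each group, and its log2 ratio of -0.30 was -0.32 without WT 2. Tmem260, an O-mannosyltransferase, was at 15.6, 22.3 and 15.4 CPM in WT and at 13.3, 11.9 and 12.8 CPM in Zeb2 cKO, and its log2 ratio went from -0.49 to -0.29 without WT 2. Glb1, the lysosomal β-galactosidase, was at 20.6, 38.1 and 20.1 CPM in WT and at 11.8, 19.4 and 18.2 CPM in Zeb2 cKO, and its log2 ratio went from -0.67 to -0.30 without WT 2. Galnt7, an enzyme of mucin type O-glycans, Glg1, a Golgi glycoprotein, and Tmed8 were 8.37% to 13.6% lower in the mean.

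Genes of vesicle traffic and of protein turnover were lower by small amounts. The 6 traffic genes, Rab10, Tbc1d12, Dennd1a, Rufy3, Agfg1 and Agfg2, were 3.42% to 17.9% lower in the mean. Rab10, a GTPase of exocytosis, was at 164.3, 175 and 174 CPM in WT and at 162, 164.1 and 157 CPM in Zeb2 cKO. Of 244 expressed genes of Rab, Arf and membrane traffic, 2 met the rule (0.820%), a share near the background of 0.957%. The 7 turnover genes, among them Ulk2, Asb3, Tnks2, Adprh, Ubfd1 and Zfand2a, were 4.48% to 18.4% lower. In a list of 232 expressed genes of ubiquitin ligation and deubiquitination, 0 met the rule and 14 were higher in every Zeb2 cKO library. For 38 expressed proteasome genes these counts were 0 and 5, and for 47 of autophagy and lysosome 1 (Ulk2) and 0. Ulk2, a kinase that starts autophagy, was at 132, 136 and 133 CPM in WT and at 121, 129 and 128 CPM in Zeb2 cKO, and Ulk1 overlapped in all 4 scalings. Tnks2, a tankyrase, was at 219, 215.1 and 215.5 CPM in WT and at 199, 211 and 210.4 CPM in Zeb2 cKO. Rab10, Ulk2 and Tnks2 kept their order in the scaling of the rule alone.

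Genes of the nuclear envelope and of nuclear import were Lemd3, an inner membrane protein that antagonises SMAD signalling, Syne3, the nesprin that links the nucleus to intermediate filaments, and Ipo11, an importin. Syne3 was at 16.0, 22.2 and 15.9 CPM in WT and at 10.7, 14.1 and 15.7 CPM in Zeb2 cKO, and its log2 ratio went from -0.42 to -0.24 without WT 2. Syne1 and Syne2 overlapped in all 4 scalings. Ipo11 was at 58.0, 60.8 and 58.7 CPM in WT and at 54.5, 54.99 and 54.98 CPM in Zeb2 cKO. The WT and Zeb2 cKO libraries of Ipo11 both lay close together, with a mean 7.39% lower.

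RNA processing, ribosome and translation contributed 9 genes. In a list of 133 expressed genes of splicing and RNA binding, 0 met the rule and 5 were higher in every Zeb2 cKO library. For 56 expressed translation factors and tRNA synthetases these counts were 0 and 1. Rplp1, a protein of the ribosomal stalk, was at 164, 268 and 184 CPM in WT and at 121, 137 and 157 CPM in Zeb2 cKO, with a log2 ratio of -0.57 that was -0.33 without WT 2. Rplp0 and Rplp2 overlapped, and of 54 expressed genes of the cytosolic ribosome Rplp1 alone met the rule (1.85%, against 0.957% of expressed genes). The counts of Rplp1 and of the pseudogene Rpl36-ps12 are uncertain, since 99.4% and 96.2% of their longest transcript is shared with other genes at 95% identity or more. Exosc10, the nuclease of the nuclear exosome, had the smallest difference of the 82 genes, at 47.3, 47.9 and 47.5 CPM in WT and 45.1, 46.9 and 46.8 CPM in Zeb2 cKO. Elac1, which processes tRNA, Cdk5rap1, which modifies mitochondrial tRNA, Tfb2m, a mitochondrial transcription factor, and Esf1, Sdad1 and Zfp330, proteins of the nucleolus, were 6.17% to 17.8% lower. In 8 of the 82 genes at least 5% of the longest transcript is shared with other genes. Beside Rplp1 and Rpl36-ps12 these were Tfb2m (48.5%), H2-T23 (33.2%), Wdr89 (21.45%), Zfp330 (8.56%), Irf2bpl (7.59%) and Lrrc2 (6.89%).

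Of 26 expressed short non-coding RNA genes 3 met the rule (11.5%, against 0.957% of expressed genes). Rpph1, the RNA of ribonuclease P that matures tRNA ends, was at 1747, 4042 and 1908 CPM in WT and at 1074.5, 1059.6 and 1632 CPM in Zeb2 cKO. It was the most abundant of the 82 genes per kilobase, at a mean of 8043 CPM in WT and 3936 CPM in Zeb2 cKO, and it shares exon sequence on its strand with Ccnb1ip1. Rny3, a Y RNA that binds the Ro protein, was at 25.9, 79.9 and 25.1 CPM in WT and at 22.1, 18.3 and 20.3 CPM in Zeb2 cKO. Of the 26 genes 25 were highest in WT 2, and the median log2 ratio of all 26 was -0.51 with that library and 0.0086 without it. Without WT 2 the log2 ratio was -0.54 for Rpph1 and -0.33 for Rny3. Rmrp, the related RNA of ribonuclease MRP, overlapped at 569.98, 1782 and 789 CPM in WT and 565, 449.9 and 726 CPM in Zeb2 cKO. The exception to the WT 2 pattern was Gm22486, a small nucleolar RNA inside the gene Ptcd3, at 14.9, 13.46 and 13.50 CPM in WT and 12.6, 12.5 and 10.7 CPM in Zeb2 cKO.

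The remaining genes were of mixed function. Kif26b, a kinesin family member, was at 17.8, 55.9 and 15.7 CPM in WT and at 10.7, 12.98 and 13.1 CPM in Zeb2 cKO, and its log2 ratio was -1.28, or -0.45 without WT 2. Nf1, the GTPase activating protein that turns off Ras, was at 194, 228 and 201 CPM in WT and at 176, 192 and 193 CPM in Zeb2 cKO, and its log2 ratio went from -0.15 to -0.079 without WT 2. Aggf1, an angiogenic factor, was 10.4% lower. Slc39a3, a zinc importer, Fmo5, a flavin monooxygenase, Plscr2 and Stoml1 were 10.5% to 20.8% lower, and the log2 ratio of Fmo5, the lowest of these, went from -0.34 to -0.16 without WT 2. Wdr89, Tmem164, Insyn1, Mtcp1, Mfap3l, Tanc2, Dlgap4, Lix1l, Igsf3, Bhlhb9, Cables1 and ENSMUSG00000029333, for which no symbol was found, were 15.2% to 33.3% lower. The role groups were made after the 82 genes were known, and 18 of the 82 were in at least 1 of 42 gene lists. Of the lists 29 held none of the 82 genes, among them collagens and matrix (0 of 74 expressed), macrophage genes (0 of 23), nuclear oxidative phosphorylation genes (0 of 78) and fatty acid oxidation genes (0 of 52). In lists of these sizes, 0 is near what the background share of 0.957% gives. The median log2 ratio of the matrix genes was -0.63 with WT 2 and 0.011 without it, and that of the macrophage genes -0.89 and 0.078. It was 0.17 and 0.050 for oxidative phosphorylation and 0.23 and 0.071 for fatty acid oxidation.

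**Figure D4:**
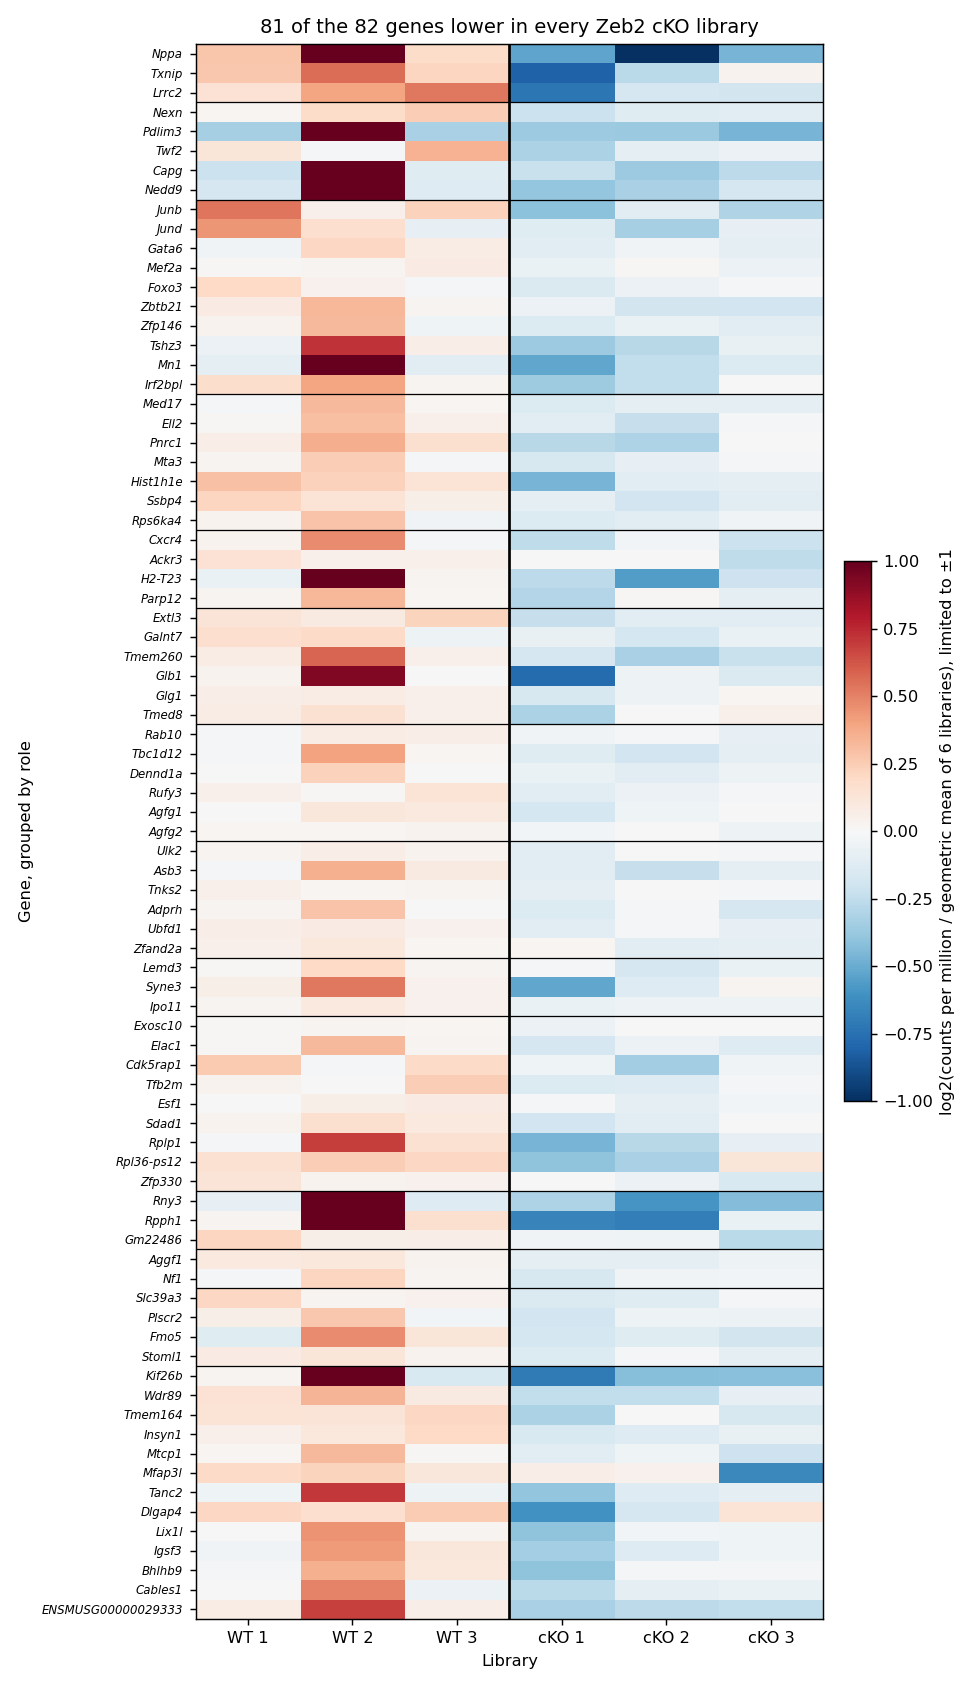
Log2 of CPM relative to the geometric mean of the gene over 6 libraries, with colours limited to ±1, for 81 of the 82 genes in role groups separated by lines. WT 2 is the darkest red column for 58 genes, and Zeb2 cKO 1 holds the lowest value more often than the other Zeb2 cKO libraries.

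The 82 genes split by how they depended on WT 2. WT 2 was the highest WT library in 58 of the 82 genes (70.7%), against 52.1% of expressed genes, and it exceeded both other WT libraries by over 1.5 times in 13. WT 1 and WT 3 lay within 10% of each other in 64 genes (78.0%, against 50.7% of expressed genes). In the 58 genes that were highest in WT 2 the median log2 ratio was -0.29 and went to -0.15 without it. In the 24 other genes, among them Lrrc2, Junb, Hist1h1e, Extl3 and Nexn, it was -0.23 and then -0.25. Over all 82 genes it was -0.28 and then -0.17, and 38 genes shrank by over 1.5 times. Of these, 18 are not given singly above, namely Tbc1d12, Asb3, Elac1, Med17, Mtcp1, Dennd1a, Tanc2, Ell2, Lix1l, Adprh, Zfp146, Lemd3, Plscr2, Igsf3, Mta3, Bhlhb9, Cables1 and ENSMUSG00000029333. Their log2 ratios lay between -0.58 (ENSMUSG00000029333) and -0.16 (Dennd1a) with WT 2 and between -0.35 (ENSMUSG00000029333) and -0.076 (Dennd1a) without it. Without WT 2 no gene had a log2 ratio under -1 and 5 had one under -0.5, against 16 with it. In Zeb2 cKO, the lowest of the 3 libraries was Zeb2 cKO 1 in 52 genes, and the highest was Zeb2 cKO 3 in 46 (56.1%, against 44.7% of expressed genes). Together the 82 genes took 0.813%, 1.27% and 0.836% of the counts outside the mt- genes in WT and 0.589%, 0.620% and 0.716% in Zeb2 cKO.

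**Figure D5:**
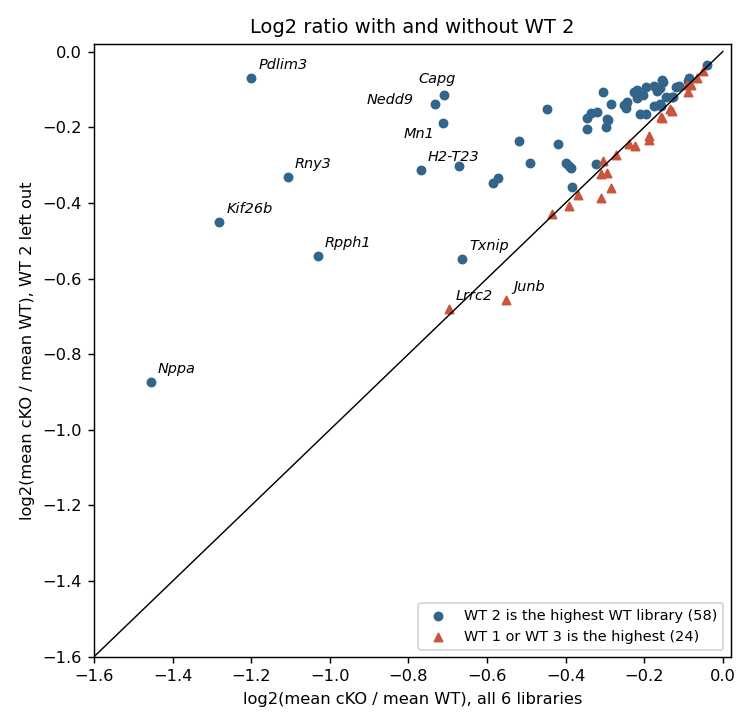
Log2 ratio of the mean CPM (Zeb2 cKO over WT) of the 82 genes with all libraries (x) and with WT 2 left out (y), where points on the line do not change. The 24 triangles, highest in WT 1 or WT 3, stay close to the line, while Pdlim3 (-1.20 to -0.069) and Kif26b (-1.28 to -0.45) move far from it.

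The limit of the rule fell in a dense stretch of genes. Just inside it lay Nedd9, Agfg1 and Rps6ka4, with a highest Zeb2 cKO value of 0.999475, 0.999621 and 0.999725 of the lowest WT value. Just outside lay 1810013L24Rik at 1.0001, Eif2ak3 at 1.00027 and Cdk13 at 1.00082. The lower bound of 10 CPM kept Mtcp1, whose lowest library was at 10.1 CPM, and left out Pold2, Smg9 and Tead3, whose lowest libraries were at 9.46, 9.43 and 9.43 CPM and which had the same order of groups. At 10 CPM a library holds 143 to 190.2 counts.

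The 82 genes were also described by features that the rule did not use. Of 81 genes found in the Gencode M21 annotation, 77 were protein coding (95.1%, against 97.3% of expressed genes). The median exon length was 4230 bases, against 5119, and the median GC content of the longest transcript was 49.0%, against 49.1%. Chromosomes 8 and 9 held 8 genes each, which was 1.77% and 1.66% of their expressed genes, beside 1.64% on chromosome 12, 1.59% on chromosome 13 and 0.957% overall. Among expressed genes on a chromosome, neighbours were Kif26b and Tfb2m, 588854 bases apart on chromosome 1, and Galnt7 and Mfap3l, 2979794 bases apart on chromosome 8. Exons of 19 genes overlap a gene on the other strand and exons of 13 overlap one on the same strand. The libraries were strand-specific, but whether the counting used strand is not given in the sources used here, so counts of Junb (with Prdx2), Txnip (with Gm15441) and Jund (with Gm11175) may hold reads of the partner.

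Promoters were searched for the E-box of ZEB factors, CAGGTG or its reverse complement CACCTG, in the 250 bases before each RefSeq gene start (GRCm38.p6), where 63 of the 82 genes matched with 69 windows. The E-box was in 7 windows (10.1%), those of Capg, Igsf3, Lemd3, Lrrc2, Mtcp1, Pdlim3 and Rps6ka4, against 14.2% of the windows of expressed genes and 17.2% of all 32851 windows. The cAMP response element TGACGTCA was in 4 windows (5.797%, against 2.67% of expressed windows), those of Ell2, Irf2bpl, Pdlim3 and Zfand2a. The AP-1 site, TGACTCA or TGAGTCA, was in 2 windows (2.90%, against 3.06%), and the CArG box of serum response factor was in 0 windows (1.35% of expressed windows). Both strands were searched for each motif, and none of these motifs contains another. The windows of Nppa, Lrrc2, Txnip, Junb and Pdlim3 are shown as examples of the muscle and early response genes, 5′ to 3′ on the strand of the gene, with matches in capitals. They are Nppa (chr4:148000472-148000721, plus), Lrrc2 (chr9:110951295-110951544, plus), Txnip (chr3:96557707-96557956, plus), Junb (chr8:84978749-84978998, minus) and Pdlim3 (chr8:45885237-45885486, plus).
Nppa: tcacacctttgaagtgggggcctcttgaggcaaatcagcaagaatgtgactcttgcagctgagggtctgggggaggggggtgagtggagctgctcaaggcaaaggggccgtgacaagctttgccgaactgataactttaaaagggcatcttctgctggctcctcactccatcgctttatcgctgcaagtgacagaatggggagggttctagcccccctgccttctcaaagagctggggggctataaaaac
Lrrc2: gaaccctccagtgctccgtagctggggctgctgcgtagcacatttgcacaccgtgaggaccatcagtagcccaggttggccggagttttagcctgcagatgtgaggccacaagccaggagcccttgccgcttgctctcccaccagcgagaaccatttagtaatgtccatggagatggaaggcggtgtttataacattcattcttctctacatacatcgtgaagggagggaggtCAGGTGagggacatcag
Txnip: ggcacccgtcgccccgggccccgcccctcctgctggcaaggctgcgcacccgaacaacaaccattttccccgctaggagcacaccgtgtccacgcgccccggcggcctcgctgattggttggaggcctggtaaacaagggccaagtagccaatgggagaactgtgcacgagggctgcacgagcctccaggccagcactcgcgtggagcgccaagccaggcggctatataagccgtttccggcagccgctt
Junb: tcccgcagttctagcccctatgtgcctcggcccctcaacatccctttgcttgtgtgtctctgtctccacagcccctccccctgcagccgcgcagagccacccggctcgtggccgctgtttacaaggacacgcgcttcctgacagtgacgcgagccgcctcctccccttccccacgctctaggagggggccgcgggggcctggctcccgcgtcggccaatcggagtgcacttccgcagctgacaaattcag
Pdlim3: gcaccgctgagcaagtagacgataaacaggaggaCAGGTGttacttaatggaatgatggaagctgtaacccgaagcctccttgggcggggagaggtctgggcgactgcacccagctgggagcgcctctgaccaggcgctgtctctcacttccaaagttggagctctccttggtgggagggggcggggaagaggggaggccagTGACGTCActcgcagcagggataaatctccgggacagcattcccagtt
The capitals mark an E-box from 17 to 12 bases before the start of Lrrc2, an E-box from 216 to 211 bases before the start of Pdlim3, and a cAMP response element from 48 to 41 bases before it. A match describes letters in the window and not a site that is bound.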

How the data were processed

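RNA-seq libraries of 3 WT and 3 Zeb2 cKO mouse hearts 14 days after MI were grouped by their labels. The authors deposited raw counts per gene, made with the STAR workflow on the Gencode M4 annotation (GRCm38); the STAR version, strand setting and treatment of multimapping reads are not given in the sources used here. The submitters' processing notes name DESeq 1.2, which was not used.

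From these counts, CPM outside mt- genes and the rule for the 82 genes were computed in Python 3.11.15. The members and lists were chosen with earlier results of these data known. Genotype was tested over all genes with edgeR 4.0.16 (TMM, filterByExpr, glmQLFit and glmQLFTest, Benjamini-Hochberg adjustment, R 4.3.3), and with DESeq2 1.42.0 as an alternative. In data simulated from these libraries, edgeR called 29 of 100 genes changed by 1 and 86 of 100 changed by 2 on the log2 scale, beside 10 unchanged genes, of 14593 genes, and DESeq2 called 57, 91 and 50. Each library held at least 14301225 counts outside mt- genes, and the counting SD at 10 CPM was at most 8.36%. Nothing in the labels says whether a library is 1 animal, so p-values measure only the spread between libraries. Features came from Gencode M21 and shared sequence from BLASTN 2.17.0 (at least 75 bases at 95% identity, genes that overlap at the locus left out). Genes named were Zeb2, the members with the widest margin, the highest level and the largest difference, up to 6 members per list, those at the limits and neighbours; members named for their role, and the relatives, were chosen after their values were seen. Of the 82 genes, 1 is counted with the others and is not reported by itself here.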

Additional observations from a re-analysis of the deposited data

How the results depend on the processing

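The number of genes that met the rule, 82, moved with nearly every choice. It was 146 with TMM-scaled library sizes, 193 with DESeq2 size factors, 9 when scaled to all counts, 45 with a lower bound of 20 CPM, 115 with 5 and 199 with 1. Leaving out 1 library, which by construction eases the rule, gave 137 (without Zeb2 cKO 1) to 696 (without Zeb2 cKO 3), with 682 without WT 1, 252 without WT 2, 258 without WT 3 and 209 without Zeb2 cKO 2. The cause of the shifts between scalings was not tested. edgeR called 0 genes lower and 0 higher at an adjusted p under 0.05 in each alternative run, with 122 to 1134 genes at an unadjusted p under 0.05, and DESeq2 called 0 lower and 2 higher.

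The median fitted log2 fold change of the 82 genes was -0.28 and stayed between -0.28 and -0.22 in all alternatives, including 1 without the filter on low counts that was added after seeing the data (-0.26), and -0.22 was without WT 2. With the replicate number as a block it was -0.27 and edgeR called 0 genes. Libraries of the same number did not deviate together (correlations 0.088, -0.14 and -0.087), so the numbers were not taken as pairs. Depth limits which of the 82 genes can be ordered: in 62 of them the margin between the groups was under 1 counting SD.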

Other observations

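Below the lower bound of 10 CPM, 314 further genes had counts above 0 in every library and were lower in every Zeb2 cKO library than in every WT library, 136 of them at 1 CPM or more in each WT library. The share of the 314 genes and the count in the other direction are not given here. With a lower bound of 1 CPM, 199 of 13113 genes (1.52%) were lower and 651 (4.96%) higher in every Zeb2 cKO library. The genes named here were chosen after their values were seen. Gcnt1, an enzyme of O-glycan branching, was left out of the 82 genes by 1 library at 9.27 CPM: it was at 43.4, 39.2 and 34.8 CPM in WT and at 9.27, 24.1 and 18.2 CPM in Zeb2 cKO. Nr4a3, an early response nuclear receptor, was at 10.7, 8.84 and 8.11 CPM in WT and at 4.10, 5.43 and 5.10 CPM in Zeb2 cKO. Gdf15, a stress-induced hormone of the TGF-β family, was at 3.42, 5.10 and 2.31 CPM in WT and at 0.754, 0.895 and 1.52 CPM in Zeb2 cKO, which is 14 to 75 counts per library. Clec4e, a receptor of macrophages, was at 1.12, 2.11 and 1.12 CPM in WT and 0.431, 0.384 and 0.578 CPM in Zeb2 cKO, from 6 to 31 counts. Kcnj15, a potassium channel, was at 6.63, 57.7 and 6.92 CPM in WT and at 3.18, 4.86 and 5.36 CPM in Zeb2 cKO, so that its mean rested on WT 2, as in Pdlim3.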
